A study of Mus musculus with 8 samples.

Results

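Receptors of the TREM and CD300 families and their adaptor DAP12, the product of *Tyrobp*, were followed in bone marrow-derived dendritic cells (BMDCs). The 8 genes described are *Trem1*, *Trem2*, *Trem3*, *Treml4*, *Tyrobp*, *Cd300a*, *Cd300lb* and *Cd300lf*, of 23356 genes in the table. They were chosen by family name with their levels in these same cells already known, so their own values are a description and carry no test. All 8 passed the filter on low values, which asked for at least 1 FPKM (fragments per kilobase of transcript, scaled to depth) in at least 1 group and left 11397 genes. The other 8 genes that the table names for these families were taken in as well, and 6 of them passed.

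RNA was sequenced from BMDCs of WT mice and of GEF-H1-/- mice (Arhgef2-/-, from here on knockout), all on a C57BL/6N background. Cells of each genotype were left untreated (control) or received 100 nM of ansamitocin-P3 (treated), a maytansinoid that destabilizes microtubules, and all were collected at 5 h. There were 8 libraries, 2 in each of the 4 groups, and the table gives 1 FPKM per gene and group over both libraries, with a 95% interval from Cuffdiff. The comparisons ask how the drug changes these genes and how far that change needs GEF-H1, the exchange factor encoded by *Arhgef2* that microtubules hold inactive. The mice lacked GEF-H1 in all cells from birth, so a difference in the culture's make-up between genotypes and a difference in the response cannot be told apart. The cells were grown from whole marrow with GM-CSF and IL-4, and those afloat or loosely attached were taken as BMDCs. No sort before RNA extraction is described in the sources used here, and fewer cells of a type and less RNA per cell cannot be told apart. Whether the 2 libraries of a group came from separate mice or cultures is not given in the sources used here.

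TREM and CD300 receptors are cell-surface proteins of the immunoglobulin superfamily found mainly on myeloid cells. Activating members have short tails and borrow signalling from an adaptor: DAP12 carries an immunoreceptor tyrosine-based activation motif (ITAM), is phosphorylated by Src family kinases and recruits the kinase SYK. Inhibitory members carry their own inhibitory motifs (ITIMs), which recruit phosphatases such as SHP-1. Many CD300 receptors, and some TREM receptors, bind lipids exposed on dying cells or on microbes, and TREM-1 is best known as an amplifier of inflammation on neutrophils and monocytes.

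*Arhgef2* was measured first as a check on the labels. Its level was 42.3 FPKM (95% interval 34.5 to 50.0) in control and 45.9 FPKM (36.9 to 54.9) in treated WT DCs. In knockout DCs it was 4.59 FPKM (3.54 to 5.63) and 4.16 FPKM (3.22 to 5.11). The level was low in both groups labelled as knockout and did not differ beyond the intervals between control and treated cells of either genotype. The defining genes of DCs were present: *Cd74*, the invariant chain of MHC class II and the most abundant of 10 DC genes, stood at 3676 FPKM in control WT and 3073 FPKM in control knockout DCs, and all 10 passed the filter.

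The promoters of these genes are shown before the values. RefSeq windows (assembly GRCm38.p6) from 250 bases before to 50 bases after the start were matched for 6 of the 8 genes. No entry was matched for *Trem3* and *Tyrobp*. The first 4 sequences belong to the genes that passed the threshold with the drug in WT DCs, and the last to *Trem2*, shown for comparison as a gene that did not pass it. Each runs 5′ to 3′ on the gene's own strand, and capitals mark matches to any of the motifs searched.
Trem1, chr17:48232489-48232788, plus strand: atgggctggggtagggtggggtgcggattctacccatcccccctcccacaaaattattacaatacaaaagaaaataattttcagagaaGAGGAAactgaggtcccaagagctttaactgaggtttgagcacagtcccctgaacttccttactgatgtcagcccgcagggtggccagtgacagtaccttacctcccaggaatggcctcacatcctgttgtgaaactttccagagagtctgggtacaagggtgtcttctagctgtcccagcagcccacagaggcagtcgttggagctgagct
Treml4, chr17:48264045-48264344, plus strand: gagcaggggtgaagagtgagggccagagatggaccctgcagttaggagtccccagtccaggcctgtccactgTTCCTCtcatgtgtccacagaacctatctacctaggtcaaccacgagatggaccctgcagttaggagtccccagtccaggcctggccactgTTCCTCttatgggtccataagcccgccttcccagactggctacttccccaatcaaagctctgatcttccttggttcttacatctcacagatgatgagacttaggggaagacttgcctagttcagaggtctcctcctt
Cd300a, chr11:114889791-114890090, plus strand: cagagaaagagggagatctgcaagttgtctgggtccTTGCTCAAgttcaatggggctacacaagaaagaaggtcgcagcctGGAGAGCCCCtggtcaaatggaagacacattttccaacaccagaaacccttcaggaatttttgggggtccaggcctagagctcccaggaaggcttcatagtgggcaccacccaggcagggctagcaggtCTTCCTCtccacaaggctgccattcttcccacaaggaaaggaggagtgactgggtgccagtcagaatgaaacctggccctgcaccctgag
Cd300lb, chr11:114934322-114934621, minus strand: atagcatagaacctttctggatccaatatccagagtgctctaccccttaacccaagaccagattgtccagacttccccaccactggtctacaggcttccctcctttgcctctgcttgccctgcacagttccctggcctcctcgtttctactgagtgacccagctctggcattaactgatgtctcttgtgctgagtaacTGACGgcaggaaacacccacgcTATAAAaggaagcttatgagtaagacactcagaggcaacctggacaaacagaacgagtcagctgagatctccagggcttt
Trem2, chr17:48346151-48346450, plus strand: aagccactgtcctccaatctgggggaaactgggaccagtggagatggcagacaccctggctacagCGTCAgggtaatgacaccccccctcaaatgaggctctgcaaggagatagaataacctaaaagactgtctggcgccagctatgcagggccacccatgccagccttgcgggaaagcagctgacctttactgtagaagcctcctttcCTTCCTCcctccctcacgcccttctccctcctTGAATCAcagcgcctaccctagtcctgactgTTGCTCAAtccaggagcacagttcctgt

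The motifs searched on both strands were AP-1 (TGANTCA), the cAMP response element (CRE, TGACGTCA), a short form of it (TGACG), C/EBP (TTGCNNAA), PU.1 (GAGGAA, and the longer GAGGAAG), the TATA box (TATAAA), the NF-kappaB consensus and the CArG box. They were chosen after the expression values had been seen. Over 27025 promoters of 300 bases, AP-1 was held by 7.93%, CRE by 1.88%, its short form by 21.0%, C/EBP by 10.8%, the shorter PU.1 motif by 28.3% and the longer by 13.5%. The TATA box was held by 14.2%, NF-kappaB by 4.35% and CArG by 1.57%.

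*Trem1* and *Treml4* held only the shorter PU.1 motif, 162 bases before the start of *Trem1* and 178 and 87 bases before that of *Treml4*, and neither held the longer. *Cd300a* held C/EBP at 214, NF-kappaB at 169 and PU.1 at 39 bases before the start. *Cd300lb* held the short CRE form at 52 and the TATA box at 30 bases before the start and no PU.1. The only AP-1 match among the 6 genes lay in *Trem2*, 9 bases before its start, with the short CRE form at 185 and PU.1 at 40 bases before and C/EBP at 22 bases after the start. *Cd300lf* held PU.1 at 43 bases before the start and at the start itself, and the TATA box at 28 bases before it. In *Cd300a*, *Trem2* and *Cd300lf* the longer PU.1 motif was present as well. A match is given as letters only and says nothing of a factor's binding, and a missing match speaks of these 300 bases alone.

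The activating receptor gene *Trem1* had the largest rise with ansamitocin-P3 among the 8 genes. Its level was 11.1 FPKM (8.99 to 13.3) in control and 58.1 FPKM (47.4 to 68.7) in treated WT DCs. In knockout DCs it was 11.3 FPKM (9.12 to 13.5) in control and 26.4 FPKM (21.6 to 31.2) in treated cells. Control cells of the genotypes were alike within their intervals, treated knockout DCs stood above both, and treated WT DCs stood above all, with every one of these steps between intervals that do not overlap. The rise was 5.21-fold in WT and 2.34-fold in knockout DCs.

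Changes are given from here on as the log2 ratio of FPKM + 1, which understates the change of genes at low levels. A gene was counted as past the threshold when this ratio was over 1 or under -1. In brackets stands the range that remains when each level is set to the least and the most favourable end of its interval. By this measure *Trem1* rose by 2.28 (1.76 to 2.80) in WT and by 1.16 (0.64 to 1.67) in knockout DCs, so the knockout kept 0.51 of the change. With a pseudocount of 5 FPKM the change in knockout DCs was 0.95, under the threshold. The difference between these changes was 1.13 (0.09 to 2.16). Among 11397 genes the change of *Trem1* ranked 57 from the highest in WT and 73 in knockout DCs.

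**Figure D1:**
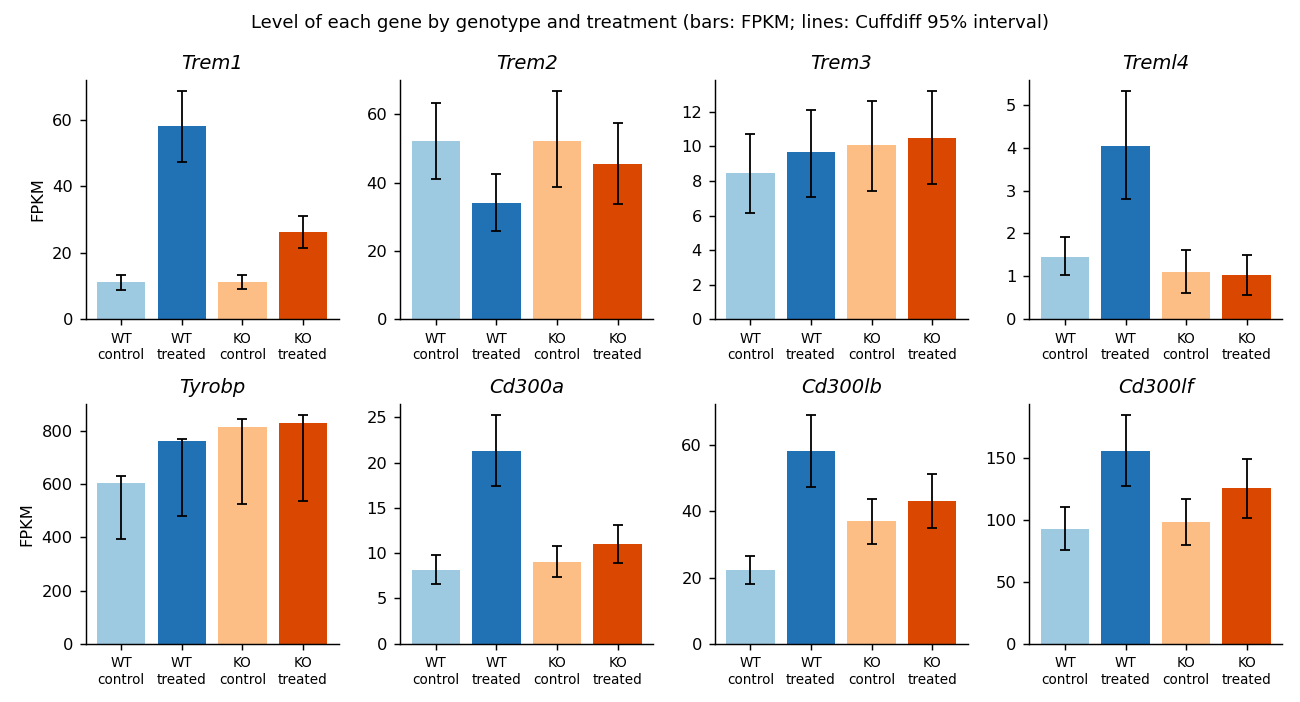
Levels of the 8 genes in FPKM on the y axis (linear, from 0) in control and treated WT and knockout (KO) DCs on the x axis. Bars are the authors' pooled values over 2 libraries and lines the Cuffdiff 95% interval. Treated WT DCs stand above the other 3 groups, with intervals apart, for *Trem1* (58.1 FPKM), *Treml4* (4.04 FPKM) and *Cd300a* (21.3 FPKM), against 4.12% of all genes.

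*Treml4* encodes a TREM-like receptor that binds dead cells and is found on DCs and macrophages of the spleen. It was the least abundant of the 8 genes, with 1.46 FPKM (1.03 to 1.91) in control and 4.04 FPKM (2.81 to 5.31) in treated WT DCs. In knockout DCs it stood at 1.11 FPKM (0.62 to 1.60) and 1.03 FPKM (0.56 to 1.49). Only treated WT DCs stood apart from the other groups, whose intervals overlap. The change was 1.03 (0.39 to 1.64) in WT and -0.06 (-0.74 to 0.62) in knockout DCs, with a difference of 1.09 (-0.23 to 2.38). The range of that difference includes 0, and at this level a pseudocount of 5 FPKM brought the WT change to 0.49, while equal FPKM sums brought it to 0.83.

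*Trem2* encodes a receptor for lipids and lipoproteins that promotes phagocytosis and signals through DAP12. It was the most abundant TREM gene in control WT DCs, at 52.2 FPKM (41.1 to 63.3), and stood at 34.1 FPKM (25.9 to 42.4) in treated WT DCs. In knockout DCs its level was 52.2 FPKM (38.8 to 66.8) in control and 45.3 FPKM (33.9 to 57.4) in treated cells. It was the only one of the 8 genes with its lowest level in treated WT DCs. The change of -0.60 (-1.26 to 0.05) in WT and of -0.20 (-0.96 to 0.55) in knockout DCs did not pass the threshold, and all 4 intervals overlap their neighbours.

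Because *Trem1* and *Trem2* share the same adaptor, their levels were set side by side per length. The ratio of *Trem1* to *Trem2* FPKM was 0.21 (0.14 to 0.32) in control WT DCs and 1.70 (1.12 to 2.65) in treated WT DCs. In knockout DCs it was 0.22 (0.14 to 0.35) in control and 0.58 (0.38 to 0.92) in treated cells. *Trem1* thus exceeded *Trem2* in treated WT DCs alone, and no range of the treated groups overlaps that of the other 3 groups.

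*Trem3*, another DAP12-associated receptor of mouse macrophages, lies next to *Trem1* and did not move with it. Its level was 8.47 FPKM (6.17 to 10.7) in control and 9.64 FPKM (7.06 to 12.1) in treated WT DCs, and 10.1 FPKM (7.44 to 12.6) and 10.5 FPKM (7.82 to 13.2) in knockout DCs. All 4 intervals overlap, and the changes with drug were 0.17 (-0.54 to 0.87) and 0.06 (-0.62 to 0.75).

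The adaptor gene *Tyrobp* was far more abundant than any of the receptors. Its level was 605 FPKM (393 to 630) in control and 762 FPKM (481 to 771) in treated WT DCs, and 815 FPKM (526 to 843) and 831 FPKM (535 to 858) in knockout DCs. All 4 intervals overlap, and each value lay near the upper end of its interval. The change was 0.33 (-0.39 to 0.97) in WT and 0.03 (-0.66 to 0.71) in knockout DCs. Summed over the 15 receptor genes, *Tyrobp* had 2.38 times their FPKM in control and 1.78 times in treated WT DCs, against 2.79 and 2.40 times in knockout DCs. This sum includes receptors that do not use DAP12, such as those of *Treml2* and *Cd300ld*. Beside *Trem1*, *Trem2* and *Trem3* alone, *Tyrobp* had 8.43 and 7.48 times their FPKM in WT and 11.1 and 10.1 times in knockout DCs.

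The CD300 family has an inhibitory arm, to which CD300a belongs, a receptor for phosphatidylserine and phosphatidylethanolamine with ITIMs in its tail. *Cd300a* stood at 8.19 FPKM (6.62 to 9.76) in control and 21.3 FPKM (17.4 to 25.2) in treated WT DCs. In knockout DCs its level was 9.07 FPKM (7.36 to 10.8) in control and 11.0 FPKM (8.96 to 13.1) in treated cells. Treated WT DCs stood above the other 3 groups, whose intervals overlap. *Cd300a* rose by 1.28 (0.77 to 1.78) in WT DCs, its change in knockout DCs was 0.25 (-0.24 to 0.75), and the difference was 1.02 (0.02 to 2.02). With a pseudocount of 5 FPKM the WT change fell just short of the threshold.

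*Cd300lf* encodes CD300f, which carries ITIMs, can also recruit PI3 kinase and is the receptor of murine norovirus. It was the most abundant receptor gene of both families, with 93.0 FPKM (75.5 to 110) in control and 156 FPKM (127 to 184) in treated WT DCs. In knockout DCs it stood at 98.7 FPKM (80.1 to 117) in control and 126 FPKM (102 to 149) in treated cells. The WT groups were apart, while both knockout groups overlapped each other and treated WT DCs overlapped treated knockout DCs. The change of 0.74 (0.20 to 1.28) in WT stayed under the threshold, and that in knockout DCs was 0.34 (-0.20 to 0.89). The locus the table gives for *Cd300lf* is that of *Rab37*, a gene on the opposite strand that spans it and stood at 4.65, 4.13, 7.83 and 7.37 FPKM in control and treated WT and control and treated knockout DCs. The kit marks strand, but whether the FPKM used it is not given in the sources used here.

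CD300b, the product of *Cd300lb*, is an activating receptor for phosphatidylserine that signals through DAP12. *Cd300lb* stood at 22.3 FPKM (18.2 to 26.4) in control and 58.2 FPKM (47.3 to 69.0) in treated WT DCs. In knockout DCs its level was 37.0 FPKM (30.1 to 43.8) in control and 43.1 FPKM (35.1 to 51.3) in treated cells. It was the only one of the 8 genes whose control groups had intervals apart, against 4.74% of all genes, and its treated groups overlapped. *Cd300lb* rose by 1.35 (0.82 to 1.87) in WT DCs, its change in knockout DCs was 0.22 (-0.31 to 0.75), and the difference was 1.13 (0.07 to 2.18). In this gene the difference in drug effect thus went with a control level 1.66 times that of WT and a treated level 0.74 times that of WT.

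*Cd300a* and *Cd300lb* kept nearly the same ratio with the drug. *Cd300lb* had 2.72 times (1.86 to 3.98) the FPKM of *Cd300a* in control WT DCs and 2.73 times (1.88 to 3.97) in treated WT DCs. In knockout DCs the ratio was 4.08 (2.80 to 5.96) in control and 3.92 (2.69 to 5.72) in treated cells. All these ranges overlap.

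Of the 8 genes, 4 were past the threshold with the drug in WT DCs, all of them higher (*Trem1*, *Treml4*, *Cd300a* and *Cd300lb*), and 1 in knockout DCs (*Trem1*). Among all 11397 genes, 4.94% were past it in WT DCs, 3.66% higher and 1.28% lower, and 1.08% in knockout DCs, 0.807% higher and 0.272% lower. The difference of the drug effects was past the threshold for the same 4 genes, against 1.9% of all genes. As the 8 genes were chosen with these values known, nothing is read from their share. Their median change was 0.89 in WT and 0.14 in knockout DCs, beside 0.00 and -0.01 for all genes. With each group scaled to the same FPKM sum, which shifted the median of all genes in WT DCs to -0.24, the differences of the 4 genes lay between 0.80 and 0.91 and none was past the threshold. On that scale *Trem3* was 0.08 lower in treated than in control WT DCs, and *Tyrobp* 0.01 lower in treated than in control knockout DCs.

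**Figure D2:**
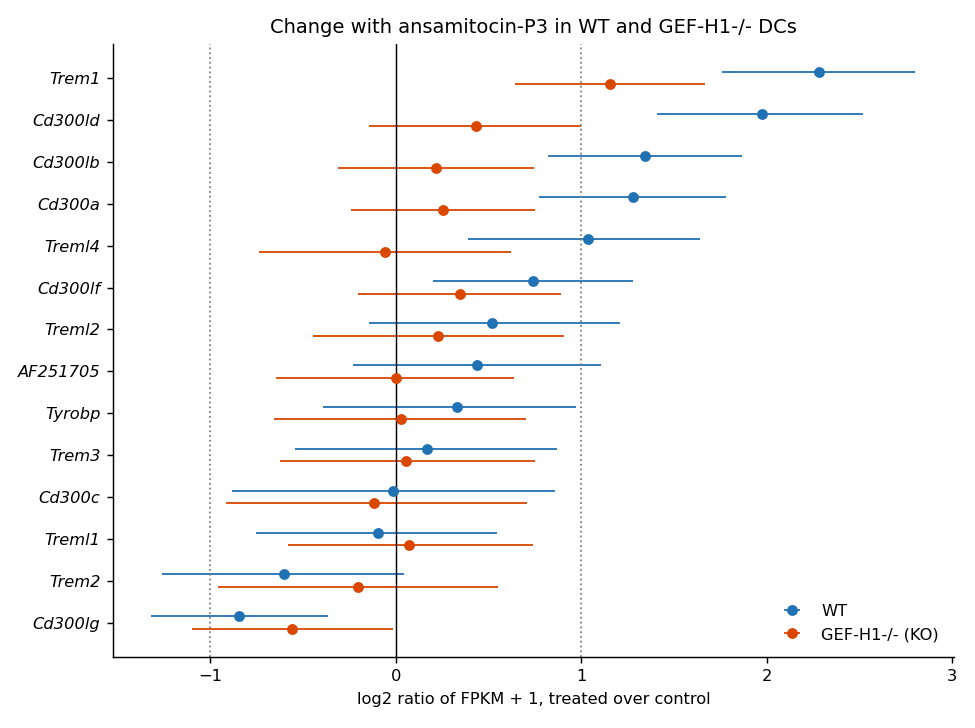
Change with ansamitocin-P3 on the x axis (log2 ratio of FPKM + 1, treated over control) for the 8 genes and the 6 other family genes that passed the filter, in WT (blue) and knockout DCs (orange). Points are the changes, lines the range that the Cuffdiff intervals allow, and dotted lines the threshold of 1. In WT DCs 5 genes lie beyond 1, from *Treml4* at 1.03 to *Trem1* at 2.28, and in knockout DCs *Trem1* alone, at 1.16.

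Between genotypes in control cells none of the 8 genes was past the threshold (0 of 8), against 1.88% of all genes. In treated cells 2 were, both lower in knockout DCs, against 4.06% of all genes: *Trem1* by -1.11 (-1.63 to -0.59) and *Treml4* by -1.32 (-2.01 to -0.61). Each was under the threshold with 1 alternative, *Trem1* at -0.85 with equal FPKM sums and *Treml4* at -0.59 with a pseudocount of 5 FPKM. *Cd300a* had a value of -0.89 (-1.40 to -0.39) with intervals apart. *Tyrobp* had 1.35 times the WT level in control and 1.09 times in treated knockout DCs, within the intervals. These comparisons share groups with those of the drug and are given side by side only.

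Among the 8 other family genes, *Cd300ld* rose with the drug in WT DCs. CD300d, its product, is an activating receptor that pairs with the Fc receptor gamma chain in place of DAP12. *Cd300ld* stood at 1.83 FPKM (1.33 to 2.34) in control and 10.1 FPKM (7.89 to 12.3) in treated WT DCs, and at 7.95 FPKM (6.25 to 9.63) in control and 11.1 FPKM (8.63 to 13.5) in treated knockout DCs. Control WT DCs stood below the other 3 groups, whose intervals overlap. The change was 1.97 (1.41 to 2.52) in WT and 0.43 in knockout DCs, and control cells differed by 1.66 (1.12 to 2.19) between genotypes. As in *Cd300lb*, the lower change in knockout DCs went with a higher control level.

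The remaining family genes did not pass the threshold in any of the 5 comparisons. *Treml2*, the most abundant of them, encodes a receptor without DAP12 signalling and stood at 46.8, 67.5, 52.0 and 61.1 FPKM in control and treated WT and control and treated knockout DCs, all with overlapping intervals. *Treml1*, known from platelets, was at 1.64 and 1.47 FPKM in WT and 3.47 and 3.71 FPKM in knockout DCs, where the intervals of the genotypes were apart in control and in treated cells. *Cd300lg*, known from endothelium, had the lowest change of the families, -0.85 (-1.32 to -0.36) in WT and -0.56 (-1.10 to -0.01) in knockout DCs, with intervals apart in both. Its levels were low, at 1.74 and 0.525 FPKM in WT and 2.03 and 1.06 FPKM in knockout DCs. With a pseudocount of 0.1 FPKM its WT change was past the threshold, as were both genotype differences of *Treml1*. *AF251705*, at the position of *Cd300c2* in GENCODE, stood at 3.72 and 5.39 FPKM in WT and 5.80 and 5.81 FPKM in knockout DCs, and *Cd300c* at 0.98 to 1.71 FPKM in all groups. *Cd300e*, a receptor of monocytes, was at most at 0.075 FPKM and *Cd300lh* was listed at 0 in all 4 groups.

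Genes that passed the threshold and genes that did not lie side by side. All 6 TREM genes of the table lie on the plus strand of chromosome 17 (GRCm38), from *Trem1* (chr17:48232739-48246924) to *Treml1* (chr17:48359916-48367146). *Trem3* begins 15.0 kb and *Treml4* 31.6 kb from the start of *Trem1*, and *Trem2* begins 114 kb from it. Between *Treml2* and *Trem2* lies *B430306N03Rik*, at 27.3 and 31.0 FPKM in WT and 35.1 and 36.6 FPKM in knockout DCs. The CD300 genes lie on chromosome 11, with *Cd300a* on the plus strand (chr11:114890041-114904651) and *Cd300lb* (chr11:114922781-114934386) on the minus strand beside it. *Cd300lg* lies apart from them on the same chromosome, and *Tyrobp* (chr7:30413788-30417579) lies beside *Hcst* on chromosome 7.

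**Figure D3:**
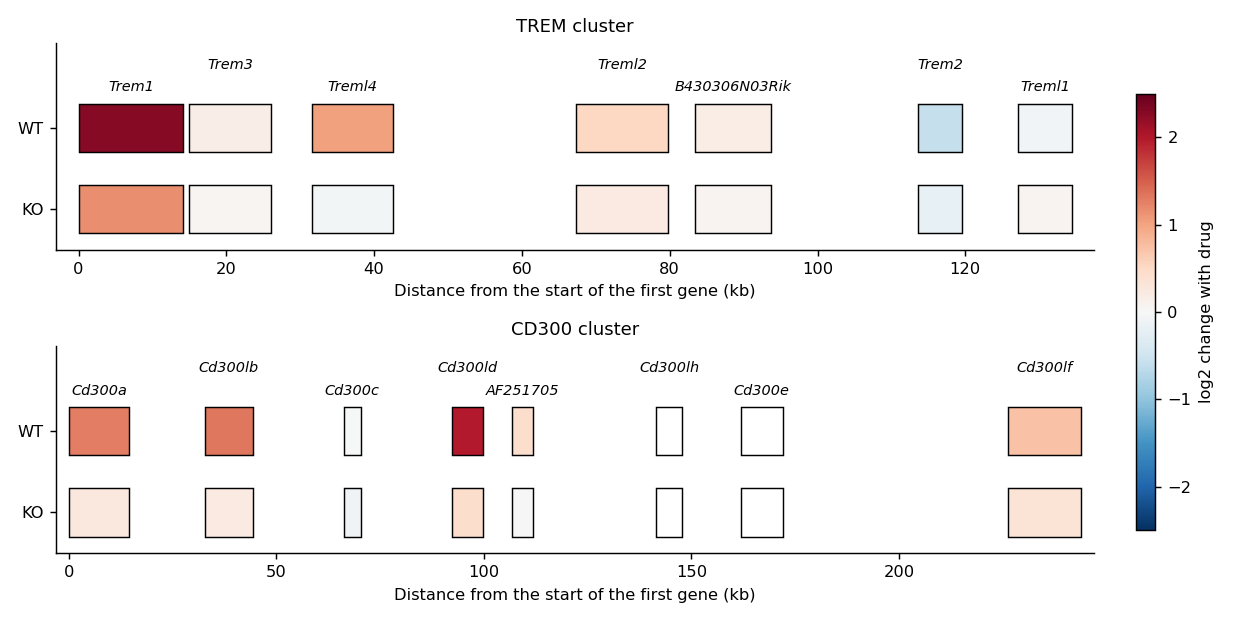
Genes of the TREM cluster (top) and the CD300 cluster (bottom) drawn to scale, with distance from the start of the first gene in kb on the x axis and 1 row per genotype. Colour gives the log2 change with the drug and white marks genes under 1 FPKM in every group. The span of *Cd300lf* is that of GENCODE. In WT DCs *Trem1* (2.28) lies beside *Trem3* (0.17), and *Cd300ld* (1.97) stands between *Cd300c* (-0.01) and *AF251705* (0.44).

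Relatives this close can share reads. Windows of 35 bases from the GENCODE transcripts of each gene were looked up in those of all other genes. None of the windows of *Trem2*, *Trem3*, *Treml4*, *Tyrobp* and *Cd300lb* was shared, and 0.468% of those of *Trem1*. The share was 6.15% for *Cd300a*, 3.72% for *Cd300lf*, 5.68% for *Cd300ld* and 10.5% for *AF251705*. It was 100% for *Cd300lh*, so its listing at 0 can also come from reads that match its copies. Values of the CD300 genes with shared windows are uncertain to that extent, since how shared reads were assigned is not given in the sources used here.

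Taken over the 15 receptor genes, the summed level was 254 FPKM in control and 428 FPKM in treated WT DCs, a 1.68-fold difference, against 292 FPKM and 347 FPKM in knockout DCs, a 1.19-fold difference. *Cd300lf* held 36.6% of the sum in control and 36.4% in treated WT DCs. *Trem2* went from 20.5% to 7.97% of it and *Trem1* from 4.38% to 13.6%. In knockout DCs *Trem2* held 17.9% and 13.1%, and *Trem1* 3.87% and 7.62%. Sums over genes have no interval in the table.

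**Figure D4:**
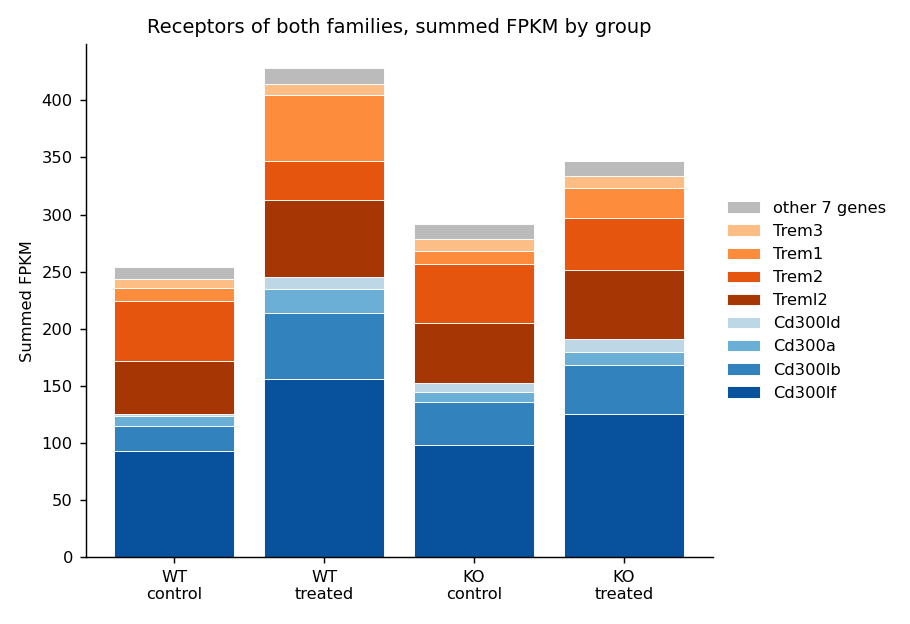
Summed FPKM of the 15 TREM and CD300 receptor genes on the y axis (linear, from 0) in the 4 groups on the x axis, with 1 colour for each of 8 genes and the other 7 joined. The bars reach 254 and 428 FPKM in control and treated WT DCs and 292 and 347 FPKM in knockout DCs, and carry no error bars because the sum has no interval.

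The adaptors other than DAP12 stood as follows. *Fcer1g*, the Fc receptor gamma chain, was at 594 and 699 FPKM in control and treated WT DCs and at 564 and 560 FPKM in knockout DCs. *Hcst*, which encodes DAP10, was at 18.9 and 22.8 FPKM in WT and 26.1 and 27.0 FPKM in knockout DCs. None of the 3 adaptor genes was past the threshold in any comparison, and the intervals of each overlap throughout. All 4 values of *Hcst* and 3 of *Fcer1g* lie above their own intervals, and the intervals say little of the error of these genes.

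The counts for the lists of related genes stand beside 4.94% of all genes past the threshold in WT and 1.08% in knockout DCs. Downstream of the ITAM, 1 of 19 signalling genes was past the threshold in WT DCs and none in knockout DCs (0 of 19), with medians of -0.01 and -0.02. This was *Malt1*, the paracaspase of the CARD9-BCL10-MALT1 complex, at 45.3 and 105 FPKM in control and treated WT DCs and 43.2 and 71.5 FPKM in knockout DCs, with intervals apart in both genotypes. *Grb2*, an adaptor and the most abundant of the list, was at 102 and 115 FPKM in WT and 97.1 and 95.8 FPKM in knockout DCs. The lowest change belonged to *Blnk*, a linker phosphorylated by SYK, which stood at 18.0 and 9.05 FPKM in WT and 22.3 and 21.5 FPKM in knockout DCs. With equal FPKM sums *Malt1* was under the threshold in WT DCs, while *Blnk* was past it at -1.17. The treated groups of *Blnk* differed by 1.16 between genotypes, with intervals apart, and by 0.92 with a pseudocount of 5 FPKM.

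On the inhibitory side, none of 8 ITIM effector genes was past the threshold in either genotype (0 of 8), with medians of -0.10 and -0.09. *Ptpn6*, which encodes SHP-1 and was the most abundant, had the lowest change: 169 and 101 FPKM in control and treated WT DCs, with intervals apart, and 148 and 109 FPKM in knockout DCs. *Ptpn11*, which encodes SHP-2, had the highest, with 31.0 and 35.7 FPKM in WT and 30.0 and 32.2 FPKM in knockout DCs.

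Of 10 other inhibitory receptors, 1 was higher and 1 lower past the threshold in WT DCs and none in knockout DCs (0 of 10), with medians of 0.04 and 0.08. *Lilrb4*, an inhibitory leukocyte immunoglobulin-like receptor, was at 203 and 433 FPKM in control and treated WT DCs and 224 and 338 FPKM in knockout DCs, with intervals apart in both genotypes. The collagen receptor gene *Lair1* fell from 13.9 to 5.71 FPKM in WT DCs and stood at 15.6 and 13.1 FPKM in knockout DCs, with overlapping intervals. The WT changes were 1.09 for *Lilrb4* and -1.15 for *Lair1*. *Lilrb4* was no longer past the threshold with equal FPKM sums, nor *Lair1* with a pseudocount of 5 FPKM.

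Of 9 other receptors known to use DAP12, 7 passed the filter and none was past the threshold with the drug (0 of 7 in each genotype), with medians of 0.17 and 0.02. *Clec5a*, a C-type lectin and the most abundant, was at 52.0 and 67.4 FPKM in WT and 67.9 and 100 FPKM in knockout DCs. *Sirpb1b* was at 1.20 and 2.64 FPKM in WT and 5.76 and 6.94 FPKM in knockout DCs, a difference of 1.62 between control and of 1.12 between treated cells. For *Sirpb1a*, at 0.96 and 2.17 FPKM in WT and 4.79 and 8.25 FPKM in knockout DCs, these differences were 1.56 and 1.54, and no other gene of the list was past the threshold between genotypes. That made 2 of 7 genes in each comparison, against 1.88% of all genes between control and 4.06% between treated cells. *Klrk1*, which encodes NKG2D, had the lowest change in WT DCs, from 2.10 to 1.99 FPKM, and stood at 1.60 and 1.59 FPKM in knockout DCs.

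Of 6 genes for ligands and for the proteases that shed TREM receptors, none was past the threshold with the drug (0 of 6 in each genotype), with medians of -0.01 and -0.03. *Pglyrp1*, whose product is a ligand of TREM-1, was the most abundant, at 283 and 263 FPKM in WT and 213 and 174 FPKM in knockout DCs. *Adam10*, which encodes a sheddase of TREM2, was at 64.1 and 52.2 FPKM in WT and 63.4 and 60.4 FPKM in knockout DCs. *Clu*, whose product clusterin is a ligand of TREM2, had the highest change in WT DCs, from 11.9 to 13.3 FPKM, and stood at 21.6 and 26.7 FPKM in knockout DCs, with the intervals of the genotypes apart in control and in treated cells.

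**Figure D5:**
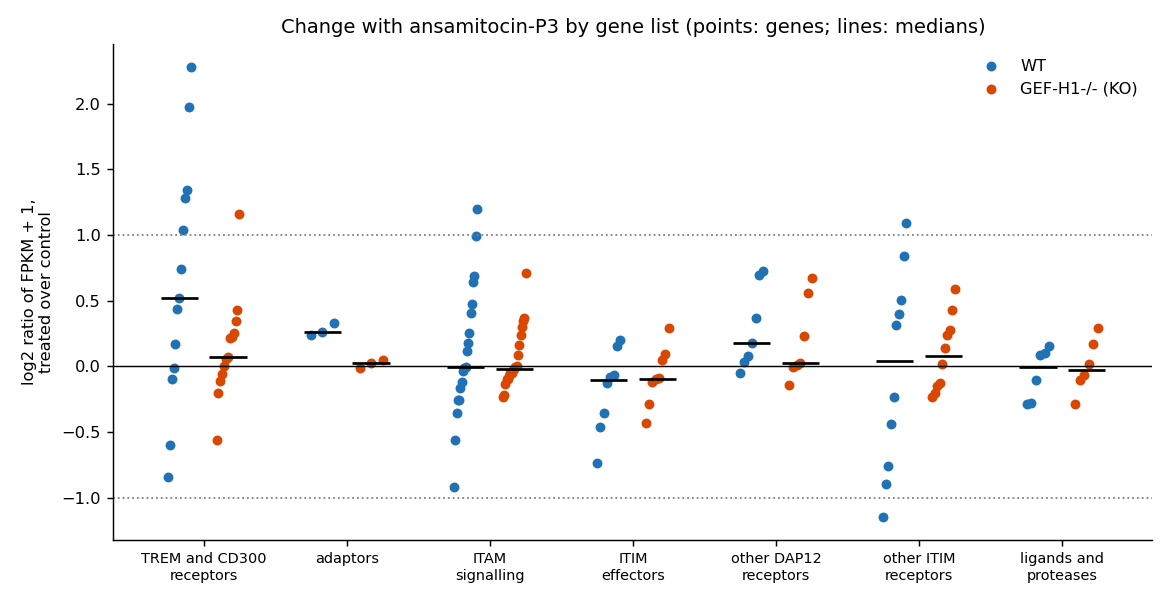
Change with ansamitocin-P3 on the y axis (log2 ratio of FPKM + 1) for the TREM and CD300 receptors and 6 lists of related genes on the x axis, in WT (blue) and knockout DCs (orange). Points are genes that passed the filter, black lines medians and dotted lines the threshold. The receptors have a median of 0.52 in WT and 0.07 in knockout DCs, and the adaptors of 0.26 and 0.03.

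The genes with the profile nearest to each of the 7 members with at least 5 FPKM were found among 8894 genes, as the smallest Euclidean distance of centred log2(FPKM + 1) over the 4 groups. For *Trem1* these were *Cystm1* (distance 0.11), *Ndrg1* (0.15) and the chemokine gene *Ccl4* (0.20), where the median distance of all genes was 1.88. For *Cd300a* they were *Tgif1* (0.055), *Zbtb42* (0.11) and *Grina* (0.12), and for *Cd300lb* *Acvrl1* (0.075), *Srgn* (0.11) and *Il1r2* (0.15), where the median distance of all genes lay near 1 for both. *Il1r2*, the decoy receptor of interleukin-1, stood at 59.9 and 156 FPKM in WT and 96.6 and 102 FPKM in knockout DCs. For *Trem2* they were *Mrpl18* (0.015), *Cdk5rap3* (0.023) and *Enoph1* (0.028), and for *Cd300lf* *Actr1b* (0.023), *Cd53* (0.040) and *Ppp2r2d* (0.042). *Tyrobp* was nearest to *5430417L22Rik* (0.024), *Cyp4f18* (0.069) and *Hist1h2bc* (0.073), and *Trem3* to *Ccdc124* (0.0075), *Gm2382* (0.019) and *Sec22b* (0.025). With 4 values per gene, flat profiles such as those of *Trem2* and *Trem3* have many near neighbours.

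Markers of other cells differed between the groups, and their part in the results above was not tested. TREM-1 is a receptor of neutrophils, and 11 of 11 neutrophil genes passed the filter. Their summed level was 32629 and 38581 FPKM in control and treated WT DCs and 22102 and 22522 FPKM in knockout DCs. *S100a8*, the most abundant, was at 19401 and 23110 FPKM in WT and 10856 and 11199 FPKM in knockout DCs, but all 4 values lie above their own intervals, so the intervals are no measure of error for this gene. Between control cells 6 of the 11 genes were higher and 5 lower in knockout DCs, with 3 past the threshold in each direction and a median of 0.10. Between treated cells 4 were higher and 7 lower, with 2 and 4 past the threshold and a median of -0.29. Of all genes, 1.88% and 4.06% were past it in these comparisons. *Camp* had the largest difference, at 189 FPKM in control WT and 15.0 FPKM in control knockout DCs, and *Ltf* (399 and 145 FPKM) and *Ngp* (1707 and 702 FPKM) were also lower past the threshold. *Mpo* was at 26.4 and 21.7 FPKM in WT and 63.1 and 59.0 FPKM in knockout DCs, and *Csf3r* at 11.3 FPKM in control WT and 30.7 FPKM in control knockout DCs. *Elane*, also counted as higher past the threshold between control cells, stood at 20.7 FPKM (0 to 93.1) in WT and 45.9 FPKM (0 to 152) in knockout DCs. Its intervals overlap, so its call is uncertain. With the drug none of the 11 was past the threshold in either genotype (0 of 11), and the largest change in WT DCs was that of *Mmp8*, from 55.2 to 90.7 FPKM. In WT DCs 9 of the 11 were higher with the drug, with a median of 0.21, and in knockout DCs 6, with a median of 0.02.

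The 6 monocyte genes summed to 616 and 537 FPKM in WT and 438 and 381 FPKM in knockout DCs, with *Ly6c2* the most abundant (448, 454, 231 and 212 FPKM). In WT DCs *Ccr2* fell from 136 to 37.8 FPKM and *Nr4a1* rose from 3.70 to 10.3 FPKM. In knockout DCs *Ccr2* stood at 135 and 94.5 FPKM and *Nr4a1* at 1.53 and 1.55 FPKM. The 9 macrophage genes, of which 8 passed the filter, summed to 262 and 196 FPKM in WT and 375 and 343 FPKM in knockout DCs. With the drug in WT DCs all 8 were lower (median -0.52), and in knockout DCs 7 of 8 were higher than in WT between control and 8 of 8 between treated cells. Past the threshold between genotypes in both were *C1qa*, at 4.22 and 2.16 FPKM in WT and 29.2 and 26.1 FPKM in knockout DCs, and *C1qb*, at 26.0 and 17.9 FPKM in WT and 67.4 and 64.1 FPKM in knockout DCs. Of the list *Cd68* was the most abundant (86.0, 79.9, 120 and 116 FPKM), and *Mertk*, a receptor for dying cells, fell from 5.46 to 0.78 FPKM in WT DCs and stood at 4.56 and 2.53 FPKM in knockout DCs.

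The 10 DC genes summed to 5642 and 7319 FPKM in WT and 4741 and 5213 FPKM in knockout DCs. With the drug in WT DCs 5 of them were higher and 5 lower, with a median of 0.04, and *Cd74* made up most of the sum. *Ccr7*, the receptor that guides mature DCs to lymph nodes, rose in WT DCs from 258 to 602 FPKM and stood at 234 and 405 FPKM in knockout DCs. *Ciita* (23.4 and 11.3 FPKM), *Flt3* (2.10 and 1.07 FPKM) and *Cd209a* (1.81 and 0.81 FPKM) were lower in treated than in control WT DCs, with intervals apart but changes under the threshold. With a pseudocount of 0.1 FPKM *Ciita* and *Cd209a* were past it. DAP12 and TREM2 also act in osteoclast fusion, and 7 osteoclast-type genes summed to 131 and 287 FPKM in WT and 194 and 242 FPKM in knockout DCs. *Dcstamp*, a fusion protein gene, made up most of the difference in WT DCs, where 3 of the 6 genes that passed the filter were higher with the drug and 3 lower, with a median of 0.09. It rose in WT DCs from 55.7 to 205 FPKM and stood at 55.6 and 102 FPKM in knockout DCs. *Calcr*, the calcitonin receptor gene, was listed at 0 in all groups. Of the 6 genes, 4 were higher and 2 lower in knockout DCs, in control and in treated cells, with medians of 0.82 and 0.70. Past the threshold were *Ctsk* and *Ocstamp* in control cells and *Ctsk* and *Acp5* in treated cells, all higher in knockout DCs. *Dcstamp* was just past it in treated cells, lower in knockout DCs. Of all genes, 1.88% and 4.06% were past it in these comparisons. *Ctsk* stood at 1.62 and 1.61 FPKM in WT and 8.36 and 8.65 FPKM in knockout DCs.

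Mast cell and basophil genes, 8 of 8 passing the filter, summed to 199 and 204 FPKM in WT and 388 and 373 FPKM in knockout DCs, with *Prss34* the most abundant. B cell genes (4 of 5 passing, led by *Cd79b*) summed to 16.6 and 10.2 FPKM in WT and 9.38 and 6.56 FPKM in knockout DCs. T and NK cell genes (3 of 6, led by *Cd8a*) summed to 14.7 and 16.4 FPKM in WT and 10.2 and 10.8 FPKM in knockout DCs. Erythroid genes (1 of 5, *Beta-s*) summed to 0.42 and 0.74 FPKM in WT and 2.36 and 2.16 FPKM in knockout DCs. Of these lists none held a gene past the threshold with the drug in either genotype (0 of 8, 0 of 4, 0 of 3 and 0 of 1). All 8 mast cell and basophil genes were higher in knockout than in WT DCs, in control and in treated cells, with medians of 0.89. In each comparison 3 of the 8 were past the threshold, against 1.88% and 4.06% of all genes. *Beta-s* was past it between control cells, at 1.22, and no B, T or NK cell gene was past it between genotypes.

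The precision of the levels could be set beside the depth. For many genes the interval bounds were whole multiples of a step, within 0.01 of a step and the rounding of the table, and where the step was taken as 1 fragment, the 3513 genes with 1 annotated transcript and such a step gave a median scale of 22.5 fragments per FPKM and kb, with 67.6% of them within 5% of it. For *Trem1*, *Tyrobp*, *Cd300a* and *Cd300lb* the step matched the length of an annotated transcript within 2%, a tolerance set after these values were seen. On this reading, which is an inference from the bounds and puts all groups on 1 scale, *Trem1* rested on about 760 and 3965 fragments in WT and 771 and 1805 fragments in knockout DCs. *Cd300a* rested on about 858, 2232, 951 and 1154 fragments in the same order of groups. Counting error alone would give *Trem1* in control WT DCs a half-width of 7.11% of its level, while the Cuffdiff interval had 19.3%. What sets the width of the interval was not tested. *Treml4*, at the lowest level, had half-widths from 30.1% to 45.2%. Over 8894 genes with at least 5 FPKM the median half-width was 21.9% to 22.0% in the 4 groups.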

How the data were processed

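RNA of 8 libraries, 2 per group, had been prepared by the authors with a stranded mRNA kit and sequenced. The authors computed FPKM with Cuffdiff 1.05, as the submitters' processing notes write it, on mm10, and deposited 1 FPKM per gene and group with the bounds of a 95% interval and a status. Aligner and annotation of this table are not given in the sources used here. Columns were matched to groups by name, the WT columns by elimination, and *Arhgef2* was low in the columns taken as knockout. Of per-sample columns, 0 were left unused.

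Genes with a status other than OK (107) were left out, and at least 1 FPKM in 1 group was required. The log2 ratio of FPKM + 1 was taken for treated against control cells in each genotype, between genotypes in control and in treated cells, and as the difference of the drug effects, with a threshold of 1 in size. With pooled values there is no SD, n, test or p-value, and the Cuffdiff interval stands as the error. The members and lists were chosen with earlier results of these data known. Named genes are *Arhgef2*, the members, every other family gene, the most abundant, most raised and most lowered gene of each list of related genes, list genes past the threshold with the drug, the most abundant marker of each cell type and markers at 0, and the 3 nearest profiles. Further markers were named after their values were seen. List symbols were matched through RefSeq synonyms, and *Sirpb1c*, *Ly6g*, *Trac* and *Hbb-bt* had no row matched. From the fixed lists 1 gene is not reported here and was left out of its list. Promoter motifs, and the tolerance for inferring fragments from interval bounds, were set after the values were seen. The motif list was changed once after its matches were seen, and all motifs of both lists are reported. Alternatives changed the pseudocount, filter, scaling and threshold. Python 3.11.15, pandas 2.3.3 and numpy 2.4.6 were used, and the calculation was tested on simulated data.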

Additional observations from a re-analysis of the deposited data

How the results depend on the processing

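No paired analysis was possible because the table holds 1 pooled value per group, and leaving out each replicate was not run for the same reason. Of 1520 changes of named genes under 6 alternatives, 1503 stayed within their range, 17 moved beyond it and 0 changed sign after passing the threshold. A change of filter leaves a gene's log2 change as it is, so those entries could not move. A pseudocount cannot turn the sign of a change between groups, only that of the difference of drug effects. These counts are thus no measure of robustness. Over all genes the counts in WT, in GEF-H1-/-, between control cells, between treated cells and for the difference of drug effects were 563, 123, 214, 463 and 216. They became 956, 212, 372, 801 and 387 with a pseudocount of 0.1 FPKM, 318, 77, 101, 206 and 123 with 5 FPKM, and 2017, 454, 600, 1687 and 935 with a threshold of log2(1.5). Asking also for intervals apart gave 70 in GEF-H1-/- and 141 for the difference. For the difference it was enough that control and treated cells of either genotype had intervals apart, so its own range could include 0. Of the 8 members, a pseudocount of 5 FPKM left 2 past the threshold in WT, 0 in GEF-H1-/-, 1 between treated cells and 2 for the difference, where *Treml4* and *Cd300a* were lost, and *Trem1* in GEF-H1-/- (0.95). A filter of 5 FPKM left out *Treml4* and gave 1 between treated cells. Equal FPKM sums left 1 between treated cells (*Treml4*, while *Trem1* went to -0.85) and 0 for the difference. The threshold of log2(1.5) gave 1 between control cells (*Cd300lb*). Among the genes past the threshold, equal sums also moved the share of higher genes in WT from 74.1% to 38.3%. Between treated cells that share went from 49.2% to 77.0%, and for the difference from 71.8% to 44.6%. These shifts came through the larger FPKM sum of treated WT DCs (739523 against 609360). Other shifts of that share by over 10 points came from pseudocounts, thresholds and intervals, not from scaling by the median ratio. Replicate spread is not visible here.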
